A study of Homo sapiens with 6 samples.

Results

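RGS genes encode regulators of G-protein signalling, and 10 of them are described here in cells given a short hairpin RNA (shRNA) against SHCBP1: RGS2, RGS3, RGS4, RGS10, RGS12, RGS14, RGS16, RGS17, RGS19 and RGS20. They were taken as every probe set whose platform annotation names 1 of these genes and no other, which gave 29 probe sets of 44988 with a single gene symbol, and 10 of 18132 genes. All 10 genes were measured, and none was removed by a filter. The genes were selected on a reading of their log2 differences between the same 6 arrays, so those differences are given as a description and no test is read from them.

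Of the 6 samples, 3 came from cells given a lentivirus that expresses an SHCBP1 shRNA and 3 from cells given one that expresses a control shRNA, each on 1 Affymetrix PrimeView array. The sample titles give TPC-1, a human line derived from papillary thyroid carcinoma, while the text on RNA extraction speaks of DLD1, a colorectal carcinoma line, in the same wording for all 6 samples. No second hairpin and no re-expression of SHCBP1 is named, so what the hairpin does through SHCBP1 and what it does otherwise cannot be told apart. Since separate cultures are not stated, every p-value rests on a spread between samples that may be technical.

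An RGS protein binds the active, GTP-bound alpha subunit of a heterotrimeric G protein and speeds its hydrolysis of GTP, which shortens the signal of a G-protein-coupled receptor. The shared part is the RGS domain. The R4 subfamily (here RGS2, RGS3, RGS4 and RGS16) is mostly small proteins, the R12 subfamily (RGS10, RGS12 and RGS14) includes larger scaffolds with Ras-binding and GoLoco domains, and the RZ subfamily (RGS17, RGS19 and RGS20) acts on Gz and Gi. Several R4 genes are known to be induced quickly by hormones and by cyclic AMP, and the abundance of several R4 proteins is also set by protein breakdown, which arrays do not measure.

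The deposited values are log2 values centred on the median of each probe set over the 6 arrays. A value therefore says how an array stands against the others, and no level of a gene, detection or background is left. The median of a probe set being 0 also means that its middle values mirror each other around 0. Whether the cells express thyroid or colorectal markers could not be checked on such values. Of 10 measured markers, 3 differed between the groups by limma's moderated test, while 41.0% of all genes did. KRT20 fell by 1.09 on the log2 scale, FOXE1 rose by 0.24 and CDX2 rose by 0.12. TG, TSHR, PAX8, NKX2-1, CDX1, CDH17 and VIL1 did not pass. In RNA from whole cultures, fewer cells with a transcript and less of it per cell cannot be told apart.

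SHCBP1, the gene targeted, had -0.95, -0.76 and -0.72 in the SHCBP1 shRNA arrays, against 0.72, 0.76 and 0.71 in the control shRNA arrays. The difference was -1.54 ± 0.06 on the log2 scale (SE, n = 3 arrays per group; limma with Benjamini-Hochberg adjustment, adjusted p = 1.87e-06). Control probe sets differed between the groups as well. For the poly-A spike-in controls, designed for bacterial transcripts put into each RNA sample, the log2 difference was 0.43 ± 0.04 (SE). For the 28S ribosomal RNA probe set at the 5′ end it was 2.80 ± 0.03 (SE). Whether the spike-in transcripts were added here cannot be seen from centred values. The part of these control differences in the results below was not tested. Scaling to the spike-in controls moved the median of all genes to -0.41 on the log2 scale, against 0.02 as deposited, and left 2.64% of the genes past the threshold higher, against 53.7%. Each difference below is thus a position among the genes of these arrays.

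RGS2 and RGS16 are the genes of the 10 with the largest differences, one upward and one downward, and both lie on chromosome 1. The 250 bases before their transcription starts are shown because the data put the transcripts of these genes on opposite sides. They are RefSeq sequences of build GRCh38.p14, at chr1:192808789-192809038 on the plus strand for RGS2 and chr1:182604390-182604639 on the minus strand for RGS16. Capitals mark matches, on either strand, to the motifs TGACG (core of a cyclic AMP response element), CCAAT (bound by NF-Y), GGGCGG (the box of SP1), TATAAA (a promoter box) or GGAATG (a motif of TEAD factors). No matches overlap in these windows.

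RGS2: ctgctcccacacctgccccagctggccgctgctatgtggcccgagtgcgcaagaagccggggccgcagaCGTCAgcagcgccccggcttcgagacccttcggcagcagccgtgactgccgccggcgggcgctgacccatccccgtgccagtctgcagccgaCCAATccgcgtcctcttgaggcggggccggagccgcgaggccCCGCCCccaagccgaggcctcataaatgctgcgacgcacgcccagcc

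RGS16: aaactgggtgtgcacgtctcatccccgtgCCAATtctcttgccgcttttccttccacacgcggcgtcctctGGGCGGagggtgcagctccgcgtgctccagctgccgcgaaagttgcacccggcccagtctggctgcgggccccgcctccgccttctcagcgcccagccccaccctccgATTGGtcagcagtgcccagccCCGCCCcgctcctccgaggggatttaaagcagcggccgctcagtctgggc

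The RGS2 window held 1 match to TGACG, 1 to CCAAT and 1 to GGGCGG, and the RGS16 window held 2 to CCAAT, 2 to GGGCGG and 0 to TGACG. Neither held TATAAA or GGAATG. Among all 34943 windows of the same length, 21.2% held TGACG, 32% CCAAT, 42.5% GGGCGG, 10.8% TATAAA and 11.9% GGAATG. A promoter window was at hand for 9 of the 10 genes, 22 windows in all since several genes have more than 1 start, and TGACG was found in 5 of the 22 and GGAATG in 0. The matches describe letters in these windows and no binding.

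RGS2, which acts mainly on the Gq class of alpha subunits, had centred log2 values of 0.97, 0.91 and 0.93 in the SHCBP1 shRNA arrays, against -1.02, -0.91 and -0.96 in the control shRNA arrays. The groups stood far apart, and the SD within a group was 0.03 in the SHCBP1 shRNA arrays and 0.06 in the control shRNA arrays. The difference was 1.90 ± 0.04 on the log2 scale (SE, n = 3 arrays per group), which is 3.73-fold. Of all 18132 genes, 5 had a larger upward difference. It rests on a single probe set, 11715757_a_at, so no other probe set of the table can be set beside it.

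**Figure D1:**
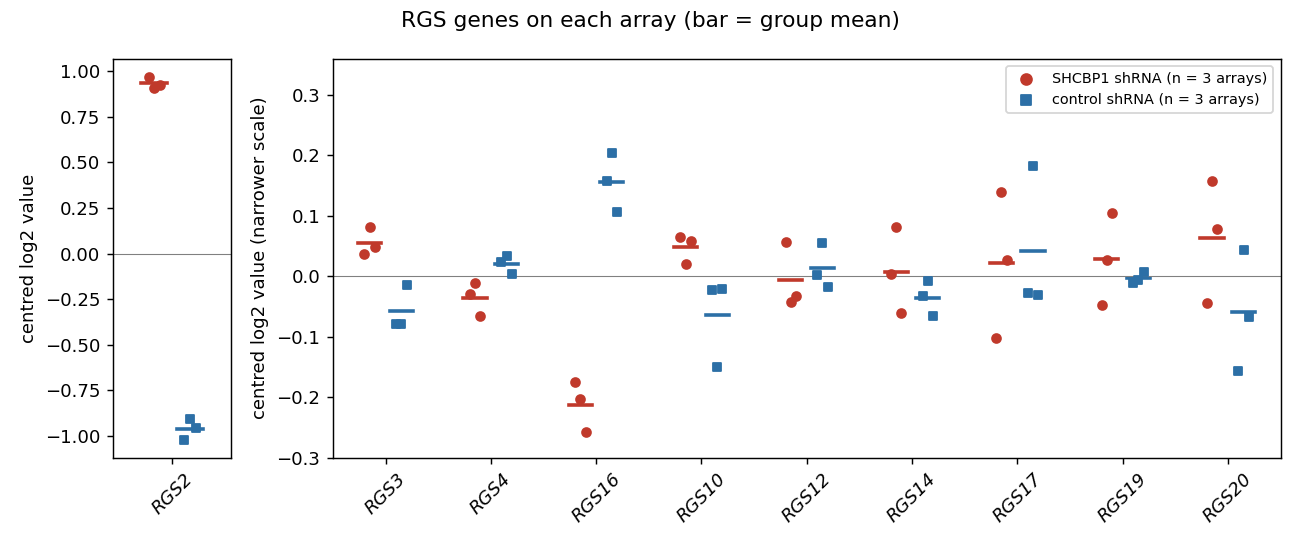
Centred log2 values of the 10 RGS genes on each array (vertical axis; mean of a gene's probe sets), with the SHCBP1 shRNA arrays as red circles left of the control shRNA arrays as blue squares, and bars for the mean of 3 arrays. RGS2 has its own, wider scale; RGS2 and RGS16 show the widest gaps between groups, 1.90 and -0.37 on the log2 scale.

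RGS16, an R4 protein acting on Gi and Gq alpha subunits, stood the other way. As the mean of its 4 probe sets it had -0.17, -0.20 and -0.26 in the SHCBP1 shRNA arrays, against 0.16, 0.20 and 0.11 in the control shRNA arrays. The groups did not overlap, and the difference was -0.37 ± 0.04 on the log2 scale (SE, n = 3 arrays per group), 1.29-fold lower. In contrast with RGS2, 1408 genes had a larger downward difference.

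The mean hides a split among the RGS16 probe sets. The probe set 11720943_a_at had -0.20, -0.26 and -0.37 in the SHCBP1 shRNA arrays, against 0.20, 0.28 and 0.28 in the control shRNA arrays, a difference of -0.53 ± 0.06 (SE). The probe set 11746705_a_at differed by -0.54 ± 0.06 and 11720944_at by -0.45 ± 0.07 on the same scale. In these 3 the groups did not overlap. The fourth, 11760543_at, had 0.0063, 0.08 and -0.12 in the SHCBP1 shRNA arrays, against 0.06, -0.0063 and -0.23 in the control shRNA arrays, and its difference of 0.05 ± 0.09 is within its error. On plain _at probe sets alone, one from each side of this split, RGS16 stood at -0.20 ± 0.07 (SE).

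RGS3, another R4 protein acting on Gi and Gq, was slightly higher as a gene mean. It had 0.04, 0.08 and 0.05 in the SHCBP1 shRNA arrays, against -0.08, -0.08 and -0.01 in the control shRNA arrays. The groups did not overlap but lay close together, and the difference was 0.11 ± 0.04 on the log2 scale (SE, n = 3 arrays per group). One of its 4 probe sets carried most of it: 11740106_a_at had 0.30, 0.15 and 0.18 in the SHCBP1 shRNA arrays, against -0.29, -0.20 and -0.15 in the control shRNA arrays, a difference of 0.42 ± 0.06 (SE). The other probe sets differed by 0.16 ± 0.06, 0.02 ± 0.04 and -0.14 ± 0.06 (SE), so they did not share a direction.

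RGS4, an R4 regulator of Gi and Gq best known from neurons, had -0.03, -0.01 and -0.07 in the SHCBP1 shRNA arrays, against 0.02, 0.03 and 0.0033 in the control shRNA arrays. The groups did not overlap, yet the difference of -0.06 ± 0.03 on the log2 scale (SE) was small. All 4 of its probe sets were below 0, from -0.16 to -0.00081, and the groups were apart in 1 of the 4. The lowest belonged to 11732993_a_at, with a difference of -0.16 ± 0.06 (SE).

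**Figure D2:**
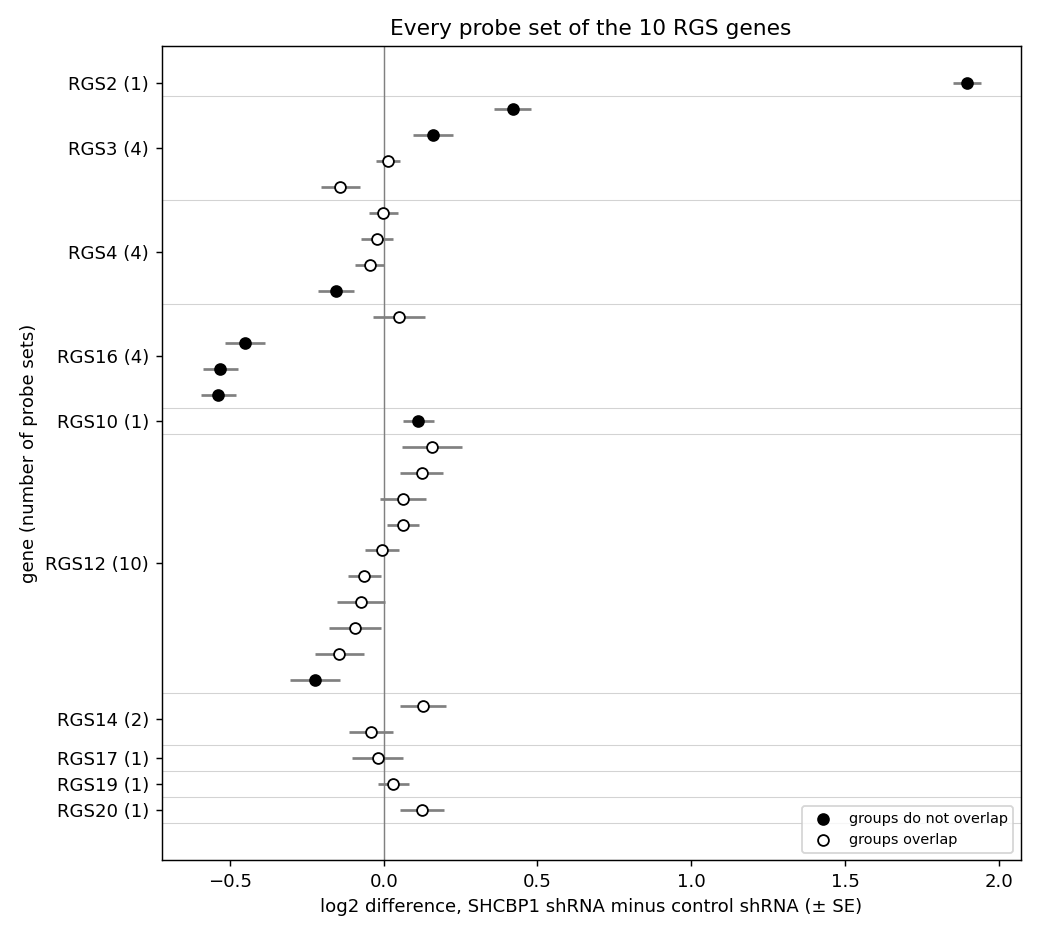
Log2 difference (SHCBP1 shRNA minus control shRNA, horizontal axis) of each of the 29 probe sets, in rows by gene, with bars of ± 1 SE from limma's fit over all probe sets. Filled points are probe sets whose groups of 3 arrays do not overlap; RGS2 stands at 1.90, 3 of 4 RGS16 probe sets lie between -0.54 and -0.45, and RGS12 spreads on both sides of 0.

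The R12 genes showed small differences. RGS10, a small protein acting on Gi and known for its role in microglia and platelets, had 0.06, 0.02 and 0.06 in the SHCBP1 shRNA arrays, against -0.02, -0.15 and -0.02 in the control shRNA arrays. Its groups were apart by a narrow margin, its difference was 0.11 ± 0.04 on the log2 scale (SE), and control shRNA replicate 2 lay well below the other control arrays. It has 1 probe set.

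RGS12, a large scaffold with RGS, PDZ, Ras-binding and GoLoco domains, had 0.06, -0.04 and -0.03 in the SHCBP1 shRNA arrays, against 0.0026, 0.05 and -0.02 in the control shRNA arrays. The groups overlapped, with a difference of -0.02 ± 0.04 on the log2 scale (SE). Of its 10 probe sets, 4 were above 0 and 6 below, from -0.22 to 0.16, and the groups were apart in 1. Its sign turned with the choice of probe sets: the difference was 0.03 without the _s_at and _x_at probe sets, which mark shared probes, and 0.14 on plain _at probe sets alone. RGS14, which joins an RGS domain to Ras-binding and GoLoco domains, had 0.0030, 0.08 and -0.06 in the SHCBP1 shRNA arrays, against -0.03, -0.0077 and -0.07 in the control shRNA arrays. Its difference was 0.04 ± 0.04 (SE), with 1 of its 2 probe sets above 0 and 1 below.

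In the RZ genes the groups overlapped throughout, each on a single probe set. RGS17 had -0.10, 0.14 and 0.03 in the SHCBP1 shRNA arrays, against -0.03, 0.18 and -0.03 in the control shRNA arrays, a difference of -0.02 ± 0.08 on the log2 scale (SE). RGS19, also called GAIP, had -0.05, 0.03 and 0.10 in the SHCBP1 shRNA arrays, against -0.01, -0.0068 and 0.0068 in the control shRNA arrays, a difference of 0.03 ± 0.04 (SE). RGS20, a regulator of Gz, had -0.04, 0.16 and 0.08 in the SHCBP1 shRNA arrays, against -0.16, 0.04 and -0.07 in the control shRNA arrays. Its difference of 0.12 ± 0.07 (SE) is the second highest of the 10 genes, but the arrays of each group spread over about as wide a range. The 95% intervals of the differences were -0.21 to 0.17 for RGS17, -0.07 to 0.14 for RGS19 and -0.04 to 0.28 for RGS20.

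Across the 10 genes, 6 differences were above 0 and 4 below, with a median of 0.04 against 0.02 over all genes. The median size without sign was 0.08 on the log2 scale, against 0.11 over all genes. A difference of at least 2-fold was seen for 1 of the 10 genes, RGS2, and for 1.22% of all genes, and for 1 of the 29 probe sets and 1.88% of all. At an adjusted p under 0.05 in limma's fit over all genes, RGS2 and RGS3 were past the threshold upward and RGS16 downward, 3 of 10, while 41.0% of all genes were past it (22.0% upward and 19.0% downward). RGS3 was no longer past it when arrays were centred on their medians, with the replicate number as a block (where RGS20 was past it), or in 5 of the 6 fits that each left out 1 array, all but the one without control shRNA replicate 3. The groups did not overlap in 5 of the 10 genes (RGS2, RGS3, RGS4, RGS16 and RGS10), and in 50.0% of all genes. Of the 29 probe sets, 5 were past the threshold, 2 upward and 3 downward, where 38.5% of all probe sets were (20.3% upward and 18.2% downward). The groups did not overlap in 9 of the 29 probe sets and in 48.4% of all. Scaled to the spike-in controls, RGS2 stood at 1.46 and the other 9 genes were below 0, RGS3 included at -0.32 and RGS16 at -0.80.

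The RGS genes that are not among the 10 were read on the same arrays, together with the R7 anchors RGS7BP and RGS9BP. Of 14 measured, 2 rose and 0 fell by limma's test (3 and 0 at an unadjusted p under 0.05), 14.3% of the list against 41.0% of all genes, with a median log2 difference of 0.02. RGS5, an R4 gene known as a marker of pericytes, had 0.29, 0.14 and 0.21 in the SHCBP1 shRNA arrays, against -0.14, -0.22 and -0.26 in the control shRNA arrays. The groups were clearly apart, with a difference of 0.42 ± 0.05 on the log2 scale (SE; limma, adjusted p = 0.000376), higher in 3 of 3 arrays. Its 4 probe sets ranged from 0.02 to 0.90.

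RGS22, a member of the family known mainly from testis, had 0.10, 0.16 and 0.23 in the SHCBP1 shRNA arrays, against -0.25, -0.12 and -0.30 in the control shRNA arrays. The difference was 0.39 ± 0.06 (SE; limma, adjusted p = 0.00101), with probe sets from -0.06 to 0.84. Both rises are positions among the genes of these arrays. Scaling to the spike-in controls, which lowers every difference by the same 0.434, put RGS5 at -0.02 and RGS22 at -0.04. The remaining 12 did not pass, with differences from -0.02 (RGS7BP) to 0.19 (RGS8). The value of RGS8 was drawn by control shRNA replicate 3 at -0.39, while the other control arrays were at -0.05 and -0.0084.

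**Figure D3:**
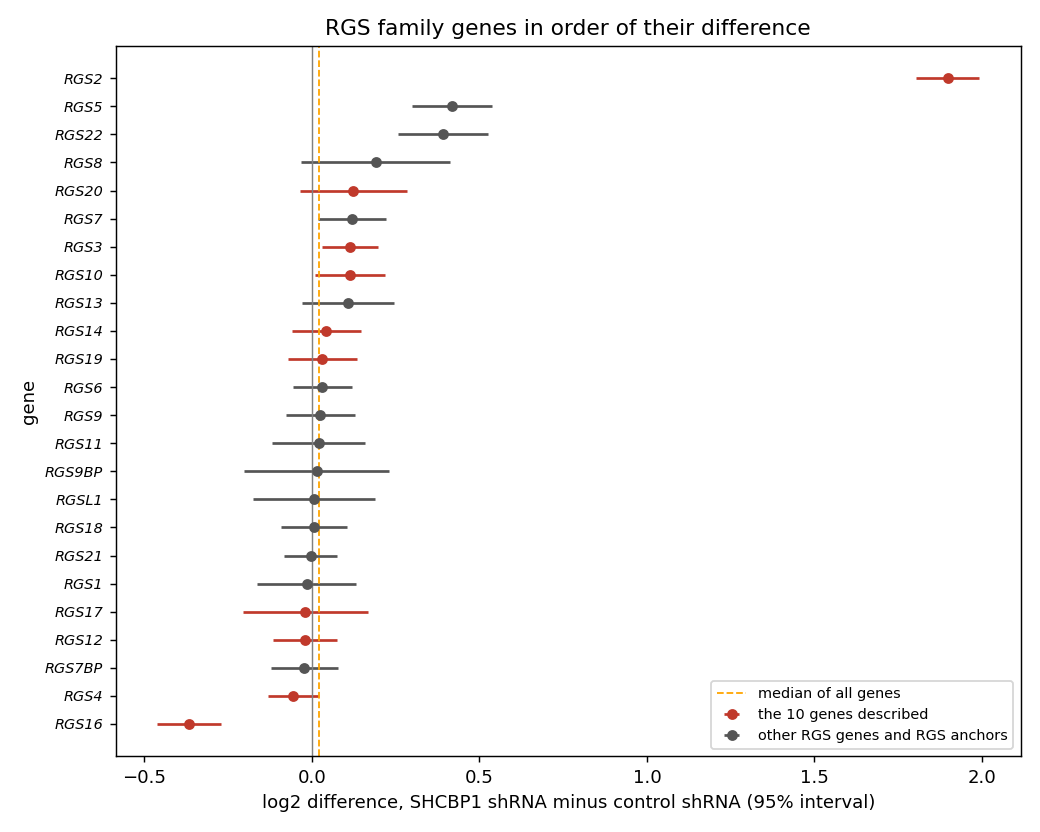
Log2 differences (SHCBP1 shRNA minus control shRNA, horizontal axis) of 24 genes in order of size, with 95% intervals from limma; red marks the 10 genes described and grey the other RGS genes and anchors. RGS2 stands alone at 1.90, RGS5 and RGS22 follow at 0.42 and 0.39, RGS16 is lowest at -0.37, and most of the rest lie near the dashed median of all genes at 0.02.

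Many R4 genes lie side by side on chromosome 1, in the gene order of the RefSeq table. RGS2 is preceded by RGS18, RGS21, RGS1 and RGS13 with 0 other protein-coding genes between neighbours. These differed by 0.0061 ± 0.04 (RGS18), -0.0033 ± 0.03 (RGS21), -0.02 ± 0.06 (RGS1) and 0.11 ± 0.06 (RGS13) on the log2 scale (SE), against 1.90 for RGS2. None of the 4 passed limma's test (adjusted p from 0.2 for RGS13 to 0.956 for RGS21). RGS16 lies directly before RGS8, at 0.19 ± 0.10 (SE), with 1 protein-coding gene between it and RGSL1, at 0.0067 ± 0.08. RGS4 and RGS5 are direct neighbours and differed by -0.06 and 0.42. For the genes that did not pass, a level too low to be measured cannot be told apart from an unchanged one on centred values.

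**Figure D4:**
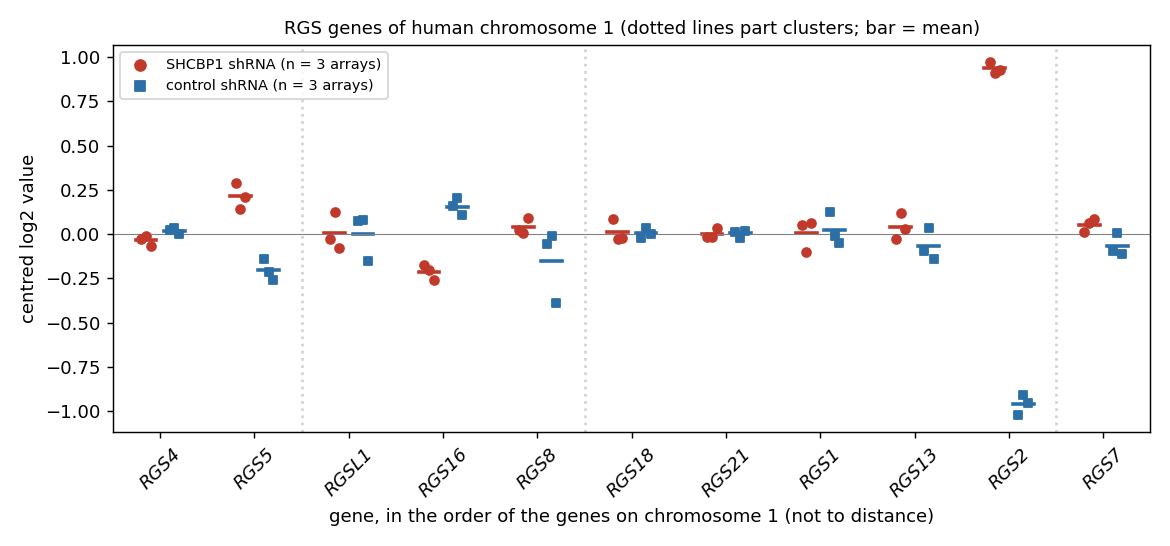
Centred log2 values (vertical axis) of 11 RGS genes in their order along chromosome 1, not to distance, with SHCBP1 shRNA arrays as red circles left of control shRNA arrays as blue squares and bars for the means of 3 arrays. Dotted lines part the clusters; RGS2 stands apart from the 4 RGS genes beside it.

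The genes whose values over the 6 arrays lay nearest to those of RGS2, by root mean square distance on the log2 scale, were CCN2 (0.08), MSX1 (0.09), CCN1 (0.10), LGALS1 (0.10) and KITLG (0.17). CCN2 and CCN1 encode secreted matricellular proteins, MSX1 a homeobox factor, LGALS1 galectin-1 and KITLG the ligand of the receptor KIT. For RGS16 the nearest were EML2 (0.01), ANKS6 (0.03), HSP90B1 (0.03), GDF11 (0.03) and SLC75A1 (0.03). EML2 encodes a microtubule-associated protein, HSP90B1 the chaperone GRP94 and GDF11 a ligand of the TGF-beta family. On centred values with tight groups, such a distance mostly picks genes with a similar difference between the groups. These log2 differences ran from 1.57 (KITLG) to 2.08 (LGALS1) near RGS2, and from -0.40 (GDF11) to -0.35 (ANKS6) near RGS16. For RGS16 the match is to a mean of probe sets that differ among themselves. Shared regulation was not tested.

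The substrates of RGS proteins, the G protein alpha subunits, moved in both directions. Of 16 measured, 4 rose and 2 fell by limma's test (37.5%, against 41.0% of all genes), with a median log2 difference of 0.0070. Both widely expressed members of the Gq class, on which RGS2 acts, were among them. GNAQ had -0.26, -0.22 and -0.31 in the SHCBP1 shRNA arrays, against 0.25, 0.26 and 0.32 in the control shRNA arrays, and fell by 0.54 on the log2 scale (-0.54 ± 0.04, SE; limma, adjusted p = 2.28e-05). GNA11 had 0.15, 0.18 and 0.15 in the SHCBP1 shRNA arrays, against -0.19, -0.25 and -0.14 in the control shRNA arrays, and rose by 0.35 ± 0.04 (SE; limma, adjusted p = 0.000241). All 7 probe sets of GNAQ were below 0, from -0.88 to -0.07, and both of GNA11 were above it. The GNAQ probe set at -0.07 did not pass on its own (limma, adjusted p = 0.43). GNA13, of the G12 class, rose by 0.39 ± 0.05, and GNAI1 of the Gi class by 0.28 ± 0.05 (SE). The Gi class was split, since GNAI2 fell by 0.16 (limma, adjusted p = 0.00553) and GNAI3, at 0.04, did not pass. The probe sets of GNAI1 ranged from 0.09 to 0.44, and on its plain _at probe set alone it did not pass (limma, adjusted p = 0.316).

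The G protein effectors are a list of phospholipases C, adenylyl cyclases and KCNJ potassium channels. Of 16 measured, 2 rose and 4 fell (37.5%, against 41.0% of all genes). PLCB3, a phospholipase C activated by Gq, had -0.19, -0.26 and -0.23 in the SHCBP1 shRNA arrays, against 0.28, 0.19 and 0.34 in the control shRNA arrays, and fell by 0.50 on the log2 scale. PLCB1, of the same family, fell by 0.38, with probe sets from -0.75 to -0.06. Also of this family, PLCB4 rose by 0.26 (limma, adjusted p = 0.00111) and PLCB2, at -0.04, did not pass. Of the cyclases that make cyclic AMP, ADCY3 fell by 0.34 and ADCY9 rose by 0.42, with probe sets from 0.08 to 0.87. The standard errors for PLCB3, PLCB1, ADCY3 and ADCY9 ran from 0.04 to 0.06, and limma's adjusted p-values from 0.000102 for PLCB3 to 0.00122 for ADCY9.

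The beta and gamma subunits gave 2 rises and 2 falls among 16 measured (25%, against 41.0% of all genes). GNG12 fell by 0.49 and GNB1 by 0.44, while GNG5 and GNB5, the partner of R7 RGS proteins, each rose by 0.18. GNB1 rests on probe sets at -0.22 and -0.66. GNB5 did not pass without the _s_at and _x_at probe sets (limma, adjusted p = 0.0622) or on plain _at probe sets alone (0.0643). In the other proteins with an RGS domain, 2 of 16 rose and 5 fell (43.8%, against the same 41.0%). GRK2, which phosphorylates active receptors and binds Gq through its RGS domain, fell by 0.44. The sorting nexin SNX25 also fell by 0.44 and the WNT scaffold AXIN1 by 0.26, and ARHGEF12, an exchange factor that binds alpha subunits of the G12 class, rose by 0.33. Limma's adjusted p-values of these 8 genes ran from 2.57e-05 (GNG12) to 0.005 (GNB5). AXIN2, in the same list as AXIN1, rose by 0.15 (limma, adjusted p = 0.0078).

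Of 8 GoLoco proteins, RIC8 chaperones and arrestins measured, 2 rose and 2 fell (50%, against 41.0% of all genes). The RIC8 proteins help alpha subunits to fold: RIC8B rose by 0.30, on probe sets at 0.03 and 0.58, and RIC8A by 0.23. The call of RIC8B rests on the _s_at probe set at 0.58, and without it RIC8B did not pass (limma, adjusted p = 0.677). RAP1GAP, which switches off the GTPase RAP1, fell by 0.41 ± 0.10 (SE), and GPSM2, a GoLoco protein of spindle orientation, by 0.16 ± 0.05 (SE; limma, adjusted p = 0.0319). GPSM2 did not pass in 4 of the 6 fits that left out 1 array (SHCBP1 shRNA replicates 1 and 2, control shRNA replicates 2 and 3; adjusted p from 0.0768 to 0.0983), and its probe set alone missed the threshold (adjusted p = 0.0515).

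The list of protein kinase A subunits and phosphodiesterases of the cyclic AMP pathway also holds the factors CREB1 and CREM. Of its 15 genes measured, 8 changed, 5 higher and 3 lower (53.3%, against 41.0% of all genes). CREB1 and CREM, at 0.0080 and 0.02, did not pass. PRKACB, a catalytic subunit of protein kinase A, had -0.35, -0.32 and -0.44 in the SHCBP1 shRNA arrays, against 0.35, 0.39 and 0.47 in the control shRNA arrays. It fell by 0.78 on the log2 scale (-0.78 ± 0.05, SE; limma, adjusted p = 1.18e-05), the furthest in any of these lists, with probe sets from -1.44 to 0.11. Another catalytic subunit, PRKACA, went the other way and rose by 0.15 (limma, adjusted p = 0.0129). The regulatory subunit PRKAR1A rose by 0.43 and PRKAR1B fell by 0.23, and the cyclic AMP phosphodiesterase PDE4D rose by 0.23. A further list holds genes known to respond to the cyclic AMP factor CREB, as RGS2 itself does. It also holds the CREB coactivator CRTC1, which did not pass, at 0.07. Of its 11 genes measured, 2 rose and 0 fell by limma's test (2 and 1 at an unadjusted p under 0.05), 18.2% of the list, with a median of 0.05. The genes that rose were the nuclear receptor NR4A3, at 0.24 ± 0.04 (SE; limma, adjusted p = 0.00117), and PDE4D, which is in both lists. Neither passed on plain _at probe sets alone (limma, adjusted p = 0.415 for NR4A3 and 0.058 for PDE4D), and NR4A3 did not pass without the _s_at and _x_at probe sets (limma, adjusted p = 0.0594). Of the same receptor family, NR4A1 stood at -0.07 and NR4A2 at -0.15, and they did not pass (limma, adjusted p = 0.137 and 0.0905).

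The EIF2B subunits, the exchange factor of translation initiation that RGS2 is known to bind through EIF2B5, gave 2 rises and 1 fall among 5. EIF2B1 rose by 0.27, EIF2B4 rose by 0.15 and EIF2B3 fell by 0.20, each with a standard error of 0.03. On its plain _at probe set alone EIF2B1 stood at 0.12 and did not pass (limma, adjusted p = 0.304). EIF2B5 itself, at 0.05, did not pass (limma, adjusted p = 0.425). Over all these lists 22 of 114 distinct genes rose and 19 fell, 36% against 41.0% of all genes, and the median log2 difference was 0.02, the same as over all genes at this rounding. Scaled to the spike-in controls, 105 of the 114 passed, all of them lower. That scaling lowers every difference by the same 0.434, and the largest rise in these lists was 0.427 (PRKAR1A). No rise could therefore remain, by the size of the shift alone. Each rise in these lists is a position among the genes of these arrays.

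**Figure D5:**
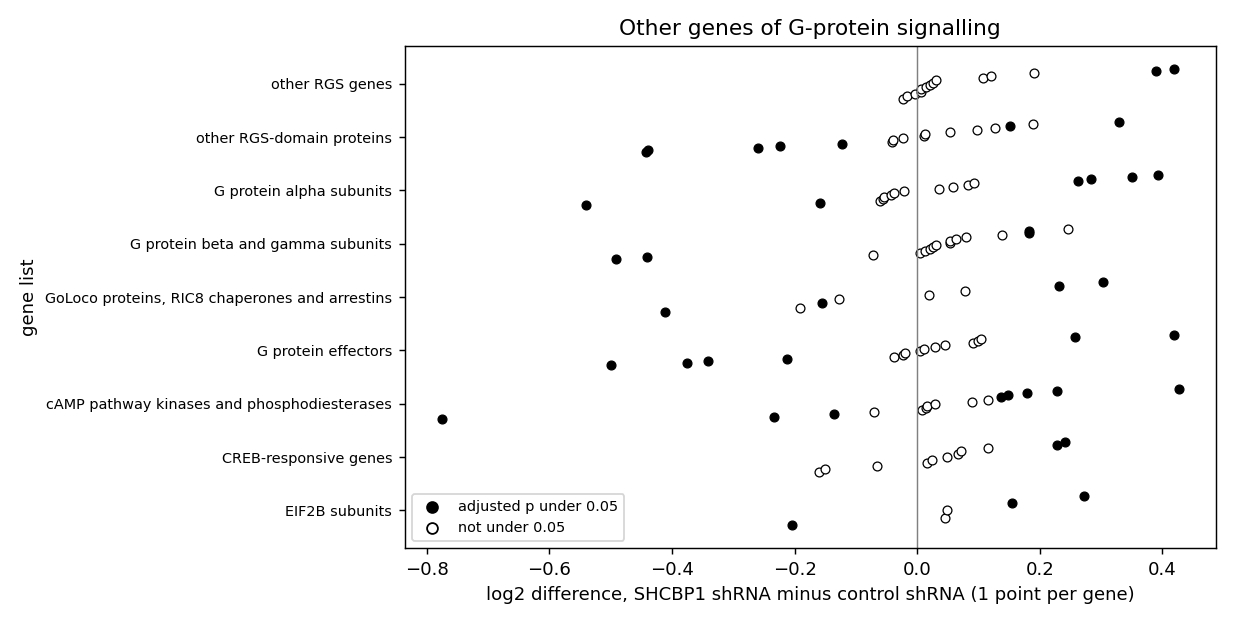
Log2 differences (SHCBP1 shRNA minus control shRNA, horizontal axis) of the genes in 9 lists of G-protein signalling, 1 point per gene, with genes past limma's threshold filled. Filled points lie on both sides of 0 in most lists, from -0.78 (PRKACB) to 0.43 (PRKAR1A), all of them below the 1.90 of RGS2.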

How the data were processed

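RNA from 6 samples was hybridised to PrimeView arrays. The authors deposited 1 log2 value per probe set, made with RMA (background correction, quantile normalization, summarisation) per the submitters' processing notes; the log base is taken from RMA's usual scale. Every probe set has a median of 0 across arrays, a centring whose software is not given in the sources used here. Quantile normalization evens out a shift of all transcripts. Array number limits precision.

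Of 49395 probe sets, 102 are controls, 44988 have 1 symbol, 1832 several and 2473 none. A gene is the mean of its probe sets, with no filter. Differences were fitted with limma 3.58.1 (R 4.3.3; lmFit, eBayes), unpaired, with Benjamini-Hochberg adjustment over 18132 genes and a threshold of 0.05. Errors are moderated standard errors, except those of the control probe sets, which come from the spread within each group without moderation. The script was tested on simulated data. Spike-in scaling used 24 poly-A control probe sets. Names ending in _s_at or _x_at mark probes shared between transcripts or genes.

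The members, lists and alternatives were chosen with earlier results of these data known. Named are SHCBP1, all members, the other RGS genes, the measured cell type markers and the 5 nearest genes to RGS2 and to RGS16. Per list, up to 4 genes past the threshold with the largest differences are named (up to 2 where none passed). AXIN2, CREB1, CREM, CRTC1, EIF2B5, GNAI2, GNAI3, NR4A1, NR4A2, PLCB2, PLCB4 and PRKACA are named in addition. Alternatives were repeated quantile normalization, array centring, spike-in scaling, array weights, robust moderation, the replicate number as a block, other probe set choices and leaving out each array. Promoter windows and gene order come from RefSeq (GRCh38.p14).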

Additional observations from a re-analysis of the deposited data

How the results depend on the processing

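SHCBP1 kept its direction and its call under all 15 alternatives (-1.98 to -1.38). Scaling to spike-in controls gave 16709 genes past the threshold, 10 of the 10 RGS genes, 105 pathway genes and a median RGS difference of -0.40. It turned RGS3 to -0.32, RGS5 to -0.015, RGS22 to -0.044, ARHGEF12 to -0.11, GNA13 to -0.041, GNA11 to -0.084, GNAI1 to -0.15, GNG5 to -0.25, GNB5 to -0.25, RIC8B to -0.13, RIC8A to -0.20, ADCY9 to -0.015, PRKAR1A to -0.0073, PDE4D to -0.21, NR4A3 to -0.19, EIF2B1 to -0.16 and EIF2B4 to -0.28, by construction a shift of every gene. Plain _at probe sets alone left 3 of the 10 RGS genes (RGS2 has none) and gave 1900 genes, 0 RGS genes and 17 pathway genes past the threshold, with a median RGS difference of -0.020; fewer genes were tested. RIC8B, GNB5 and NR4A3 no longer passed there or without _s_at and _x_at probe sets, and GNAI1, EIF2B1 and PDE4D no longer passed on plain _at probe sets. Leaving out 1 array gave 6655 to 6840 genes, 2 to 3 RGS genes, 38 to 41 pathway genes, a median RGS difference of 0.02 to 0.06 and an SHCBP1 difference of -1.59 to -1.47. With the replicate number as a block, 7092 genes, 3 RGS genes (RGS2, RGS16 and RGS20) and 42 pathway genes passed. Arrays that share a number do not deviate together (correlations over genes of 0.02, -0.05 and 0.07), so the number was not taken to pair samples.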
